A study of Homo sapiens with 6 samples.

Results

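DNA replication and S phase genes were followed in Huh7, a human line from a hepatocellular carcinoma, as a set of 47 named genes: origin licensing factors, polymerases, the sliding clamp and its loader, flap processing enzymes, enzymes of deoxynucleotide supply, fork protection factors, chromatin factors and E2F transcription factors. The helicase subunits MCM2 to MCM7 and the GINS subunits were not in the set. All 47 genes were measured, by 113 of 49293 probe sets, among 18132 genes in all. The study compared 3 arrays of Huh7 cells labelled as KCa3.1 silenced, with the variation given as KCa3.1 knockdown, against 3 arrays of control Huh7 cells. Both groups were in logarithmic growth, and 6 µg of total RNA was labelled per array. The labels do not state how KCa3.1 was silenced, whether the cells were 1 clone, or what the control cells carried, and nothing says that replicates came from separate cultures, so p-values measure the spread between these arrays, which may be technical.

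Replication starts when the origin recognition complex, CDC6 and CDT1 load the MCM helicase onto chromatin in G1, and it proceeds in S phase when CDC45 and GINS activate that helicase and the polymerases alpha, delta and epsilon copy the strands around the clamp PCNA. Many of these genes are transcribed in a wave at the G1 to S boundary through sites bound by E2F factors. Because they are transcribed mainly in cycling cells, their summed transcript level in a culture depends both on the share of cells in S phase and on the RNA per cell, and in RNA from whole cultures these cannot be told apart.

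Each value is a log2 RMA value relative to the probe set's own baseline, so 0 is that baseline and no value gives how strongly a gene was expressed. The samples behind the baseline are not given in the sources used here. It is not the median of these 6 arrays, which was exactly 0 for 11.7% of probe sets, so the place of 0 has no meaning of its own, while a difference between groups does not depend on it. For the same reason the identity of the cells could not be checked by the level of liver markers. Of 7 measured hepatocyte markers 4 (AFP, APOA1, SERPINA1 and FGB) were higher in the silenced-labelled arrays and 0 were lower. By the same test (limma, adjusted p under 0.05) 1 of 7 fibroblast, 1 of 5 leukocyte and 0 of 4 endothelial markers passed. Over all genes 6.19% were lower and 7.14% higher. At an unadjusted p under 0.05 (limma) 6, 1, 2 and 0 markers passed, beside 4467 of all 18132 genes. Those that passed only there went both ways, each without overlap between groups. ALB was higher (0.16), while the hepatocyte marker TF (-0.19) and the leukocyte marker CD68 (-0.21) were lower. The part of these differences in the results below was not tested. KCNN4, the gene of KCa3.1, measured -0.05, 0.09 and 0.01 in the silenced-labelled arrays, against -0.01, 0.13 and -0.07 in control arrays. Its levels overlapped, with a change of -0.0003 (95% interval -0.16 to 0.16, limma adjusted p = 0.999, two-sided exact permutation p = 1 against a smallest possible 0.1). KCNN4 was read by 3 probe sets that all carry the array maker's mark for probes shared with other transcripts; their changes were 0.02, -0.03 and 0.01, and whether they follow the KCNN4 transcript was not tested. No lower level of the target was found here to bear out the label, so every direction below is between arrays as labelled.

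Replication and S phase genes were lower more often than higher in the silenced-labelled arrays, and the changes were small. Of the 47 genes 11 fell (POLE3, RRM1, DUT, E2F8, E2F1, POLD1, FEN1, SLBP, CDC6, UHRF1 and POLE2), 1 rose (PRIM1) and 35 did not pass the test (limma, adjusted p under 0.05 over all 18132 genes). The falls ranged from 1.14-fold for POLE2 to 1.42-fold for POLE3. That is 23.4% of the set lower and 2.13% higher, beside 6.19% of all genes lower, 7.14% higher and 13.3% either way. The set was chosen with earlier results of these data known, so its contrast with all genes is a description and not independent evidence. A negative difference, with no test, was found for 31 of the 47 genes (66%), beside 52.2% of all genes. The median change of the set was -0.13 on the log2 scale, beside -0.01 for all genes. In 20 genes (42.6%) every silenced-labelled array lay below every control array, beside 14.4% of all genes, and in 3 (6.38%) every silenced-labelled array lay above, beside 15% of all genes.

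**Figure D1:**
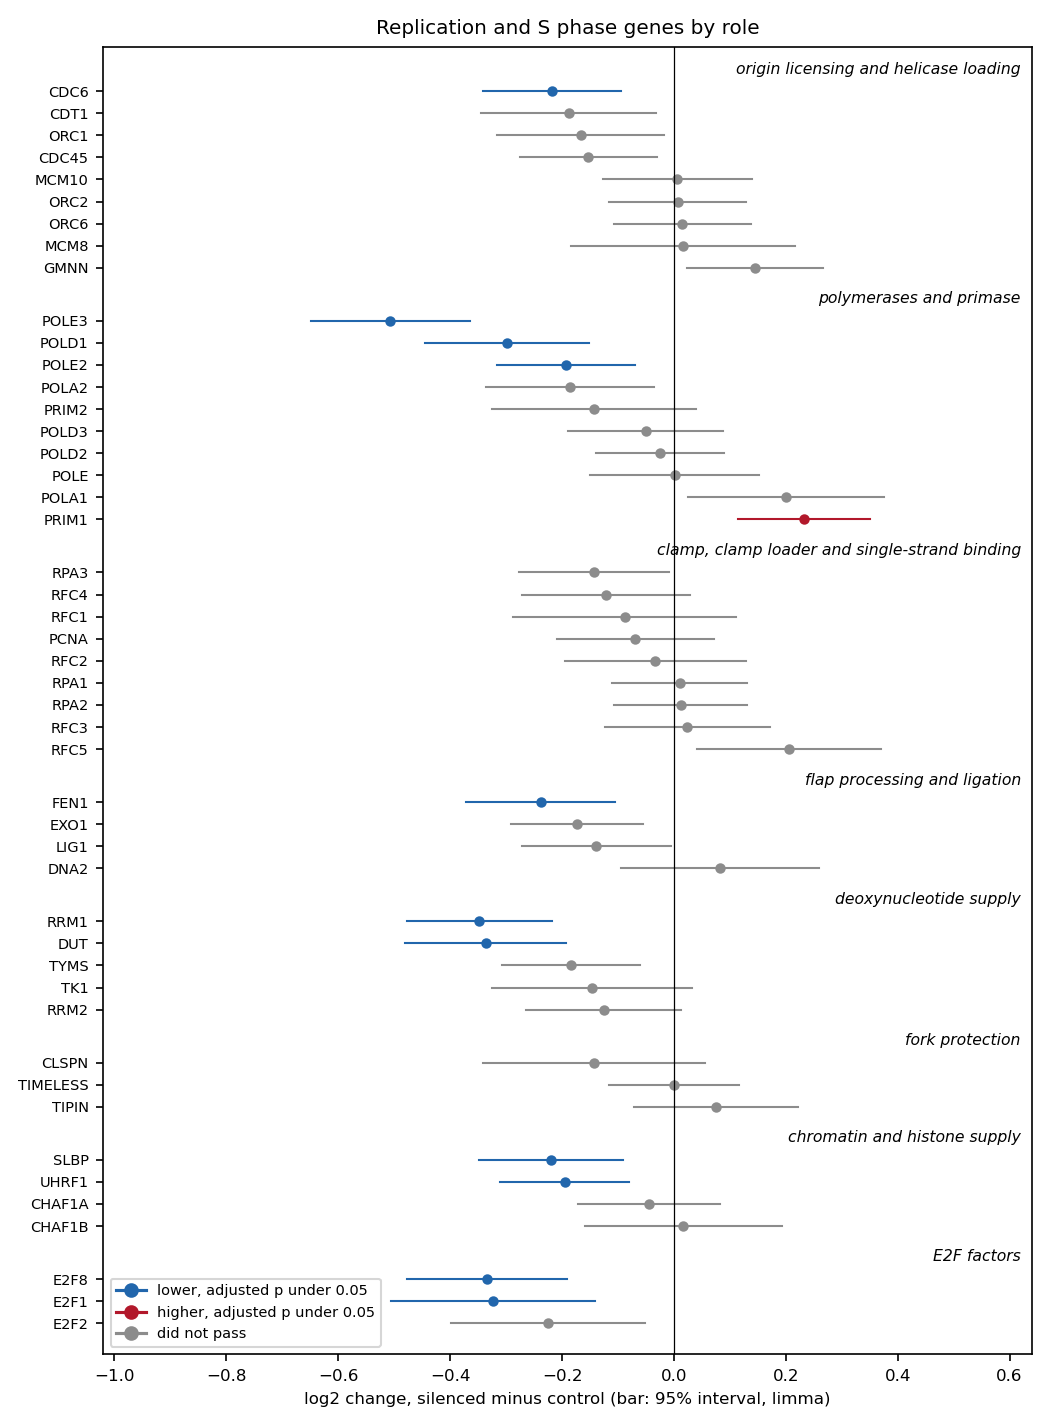
Log2 change (silenced-labelled minus control, x axis) of each of the 47 genes, grouped by role, with the 95% interval from limma on 3 arrays per group; blue marks genes lower and red genes higher at an adjusted p under 0.05, grey genes that did not pass. POLE3 stands furthest below 0, at -0.51, and PRIM1 is the only gene that passed above 0, at 0.23.

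The count of lower genes depended on which array was left out, and it dropped for each except control replicate 1. It was 4 without silenced replicate 1 or 2, 5 without silenced replicate 3, 5 without control replicate 2 or 3 and 12 without control replicate 1. POLE3, RRM1, DUT and E2F8 passed whichever array was left out. CDC6, FEN1, SLBP and UHRF1 passed only when control replicate 1 was the array left out, and E2F1 only when it was control replicate 2. POLD1 and PRIM1 lost their calls without silenced replicate 1 or 2 or control replicate 2, and POLE2 lost its call whichever array was left out. Each of these 12 genes kept its direction in all of these fits.

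Across arrays the median over the 47 genes was 0.02, 0 and 0.04 in silenced-labelled replicates 1, 2 and 3, against 0.11, 0.13 and 0.14 in control replicates 1, 2 and 3. The medians of the groups did not overlap, and the median over all genes lay between 0 and 0.01 in size on every array. The number of the 47 genes below 0 was 10, 20 and 13 in the silenced-labelled arrays, against 9, 9 and 4 in control arrays. Over all genes 49.3%, 39.4% and 37.5% lay below 0 in the silenced-labelled arrays, against 38.9%, 36.7% and 50.7% in control arrays, which overlap.

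**Figure D2:**
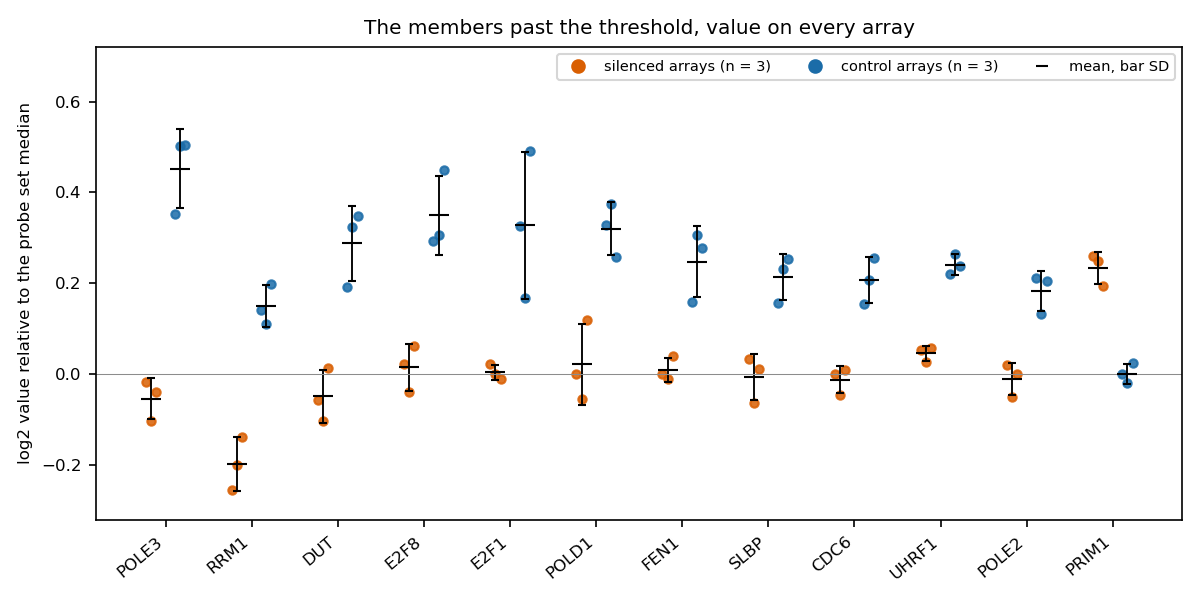
Log2 value relative to the probe set baseline (y axis) on every array for the 12 genes past the threshold, silenced-labelled arrays in orange left of control arrays in blue, with the mean and SD of 3 arrays in black. In 11 genes all orange points lie below all blue points, and in PRIM1 all lie above; RRM1 is the gene whose silenced-labelled arrays reach lowest, from -0.25 to -0.14.

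Origin licensing and helicase loading genes held 1 fall in 9. The counts by role here and below are small, beside 6.19% of all genes lower and 7.14% higher, and differences between roles were not tested. CDC6, the ATPase that joins the origin recognition complex to load the helicase, measured 0, -0.04 and 0.01 in the silenced-labelled arrays, against 0.16, 0.21 and 0.26 in control arrays. All silenced-labelled arrays were below all control arrays, and CDC6 fell by 0.22 on the log2 scale, with an SE of 0.054 (limma adjusted p = 0.0291). The call rested on 1 of its 2 probe sets, with changes of -0.27 (limma adjusted p = 0.0278) and -0.16 (limma adjusted p = 0.161).

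CDT1, the helicase loading factor, and GMNN, which encodes geminin, the inhibitor that binds CDT1, had changes of opposite sign, and neither passed. CDT1 measured 0.01, -0.10 and 0.03 in the silenced-labelled arrays, against 0.06, 0.26 and 0.18 in control arrays, a change of -0.19 (95% interval -0.34 to -0.03, limma adjusted p = 0.121). GMNN measured 0.16, 0.14 and 0.08 in the silenced-labelled arrays, against -0.02, -0.05 and 0.01 in control arrays, a change of 0.14 (95% interval 0.02 to 0.27, limma adjusted p = 0.124). In both genes the groups did not overlap. Of the 3 probe sets of CDT1, 1 was lower, at -0.35 (limma adjusted p = 0.0303), and the other two had changes of -0.13 and -0.09.

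Of the origin recognition complex, ORC1, ORC2 and ORC6 belong to the set. ORC1, the subunit whose level varies most over the cell cycle in human cells, had a change of -0.17 (95% interval -0.32 to -0.02, limma adjusted p = 0.152), with all silenced-labelled arrays below all control arrays. ORC1 was read by 1 probe set, which carries the array maker's mark for probes shared with other transcripts. ORC2 and ORC6 had changes of 0.01 and 0.02, with overlapping groups. The remaining subunit genes, taken from the list of other replication genes, had positive changes that did not pass: 0.14 for ORC3 and 0.07 for ORC4, both with overlap, and 0.19 for ORC5 without overlap (limma adjusted p = 0.114), with 1 of its 3 probe sets higher. CDC45, the factor that activates the loaded helicase, had a change of -0.15 (limma adjusted p = 0.11) without overlap. A probe set of CDC45 read exactly 0 on all 3 silenced-labelled arrays, so its SD there was 0. MCM10, which acts with CDC45 in origin firing, and MCM8, a helicase of the MCM family that works in homologous recombination, had changes of 0.01 and 0.02. The intervals of these last ones ran from -0.13 to 0.14 for MCM10 and from -0.18 to 0.22 for MCM8.

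Polymerase and primase genes held 3 falls and 1 rise in 10. POLE3, a small histone-fold subunit of polymerase epsilon that is also part of the CHRAC chromatin remodelling complex, had the largest change of the 47 genes. It measured -0.02, -0.10 and -0.04 in the silenced-labelled arrays, against 0.35, 0.50 and 0.50 in control arrays. The groups lay far apart relative to their spread, with means of -0.05 ± 0.04 in silenced-labelled and 0.45 ± 0.09 in control arrays (SD, n = 3 each). POLE3 was 1.42-fold lower (limma adjusted p = 0.000842), a log2 change of -0.51 with an SE of 0.062. Each of its 5 probe sets passed, at changes between -0.60 and -0.44.

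Polymerase epsilon extends the leading strand. POLE2, the accessory subunit that binds the catalytic one, measured 0.02, -0.05 and 0 in the silenced-labelled arrays, against 0.21, 0.13 and 0.20 in control arrays. It fell by 0.19 on the log2 scale, with an SE of 0.054 (limma adjusted p = 0.0473), close to the threshold and from 1 probe set. POLE, the catalytic subunit, measured 0.15, 0 and 0.11 in the silenced-labelled arrays, against 0.17, 0.08 and 0 in control arrays, with a change of 0.0015 (95% interval -0.15 to 0.15). The groups overlapped for POLE, which was read by 1 probe set of the kind whose probes match several transcripts. That probe set read exactly 0 in silenced replicate 2 and control replicate 3. POLE4, the other histone-fold subunit, is in the list of other replication genes and had a change of -0.13 that did not pass (95% interval -0.28 to 0.02, limma adjusted p = 0.276), without overlap.

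In polymerase delta, which extends the lagging strand, the catalytic subunit gene POLD1 measured 0, -0.06 and 0.12 in the silenced-labelled arrays, against 0.33, 0.37 and 0.26 in control arrays. POLD1 was 1.23-fold lower without overlap (limma adjusted p = 0.0154; log2 change -0.30, SE 0.065), from 1 probe set. The accessory subunit genes POLD2 and POLD3 had changes of -0.02 (95% interval -0.14 to 0.09) and -0.05 (95% interval -0.19 to 0.09), and neither passed.

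The 4 subunits of the polymerase alpha and primase complex, which lays down the RNA-DNA primers, divided by sign. PRIM1, the catalytic primase subunit, measured 0.26, 0.25 and 0.19 in the silenced-labelled arrays, against 0, -0.02 and 0.02 in control arrays. PRIM1 rose by 0.23 without overlap (SE 0.052, 1.17-fold, limma adjusted p = 0.0178), from 1 probe set. POLA1, the catalytic polymerase subunit, had a change of 0.20 (95% interval 0.03 to 0.38, limma adjusted p = 0.141), with control replicate 1 at 0.15 inside the range of the silenced-labelled arrays. The regulatory subunit genes POLA2 and PRIM2 had changes of -0.19 (limma adjusted p = 0.11) and -0.14 (limma adjusted p = 0.334). Only PRIM1 of the 4 passed, and the difference between subunits was not tested.

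None of the 9 genes of the clamp, the clamp loader and single-strand binding passed by limma at an adjusted p under 0.05. At an unadjusted p under 0.05 (limma) 2 of the 9 passed, beside 4467 of all 18132 genes. PCNA, the sliding clamp that holds the polymerases on DNA, measured 0.03, -0.0001 and 0.07 in the silenced-labelled arrays, against 0.12, 0.18 and 0.01 in control arrays. The groups overlapped through control replicate 3, and the change was -0.07 (95% interval -0.21 to 0.07, limma adjusted p = 0.589). Its probe sets gave -0.09 and -0.05.

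RFC5, a small subunit of the clamp loader, had the largest change of this group and did not pass. It measured 0.21, 0.17 and 0.29 in the silenced-labelled arrays, against -0.12, 0.10 and 0.08 in control arrays, a change of 0.21 (95% interval 0.04 to 0.37, limma adjusted p = 0.107) without overlap. Its 4 probe sets disagreed. They gave 0.41 and 0.38, both past the threshold (limma adjusted p = 0.0163 and 0.0137), 0.25 and -0.22, neither of which passed, and the last is of the kind whose probes match several transcripts. With only the probe sets specific to a gene, RFC5 rose by 0.35 (limma adjusted p = 0.0115). The large subunit gene RFC1 and the small ones RFC2, RFC3 and RFC4 had changes of -0.09, -0.03, 0.02 and -0.12, all with overlapping groups. RFC2 was read by 1 probe set, which carries the array maker's mark for probes shared with other transcripts. The genes of the single-strand binding protein RPA had changes of 0.01 for RPA1, 0.01 for RPA2 and -0.14 for RPA3, its smallest subunit (95% interval -0.28 to -0.01, limma adjusted p = 0.173).

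**Figure D3:**
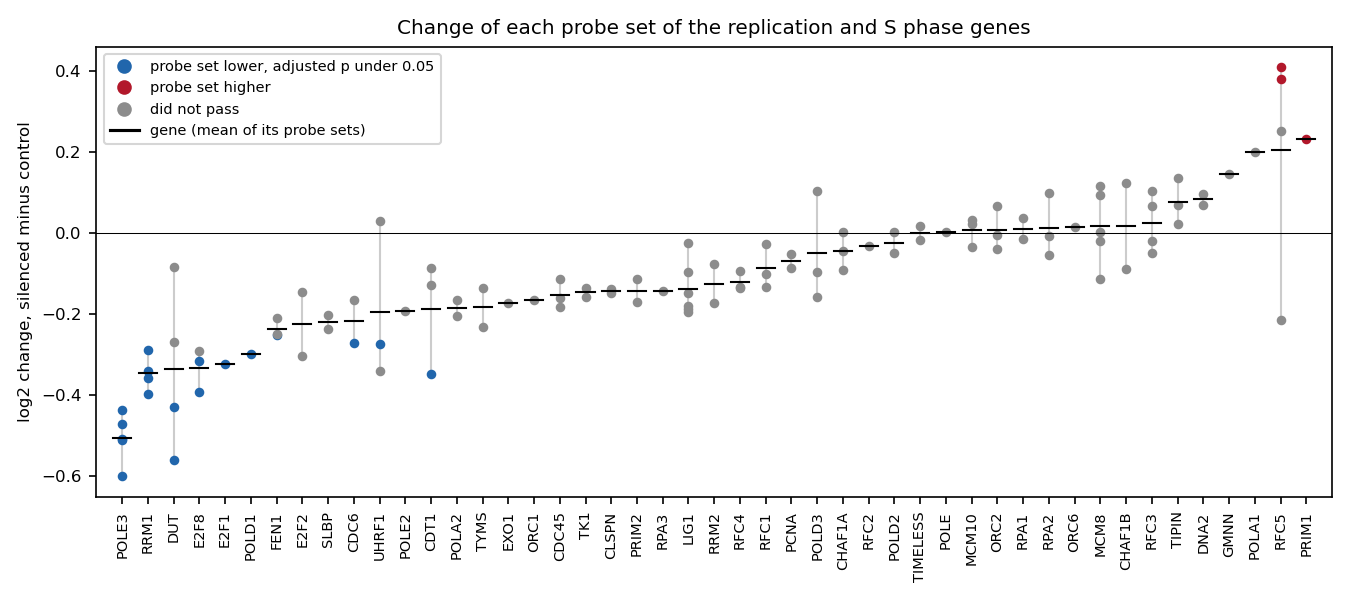
Log2 change (silenced-labelled minus control, y axis) of each of the 113 probe sets, with genes ordered along the x axis by the gene's change (black bar, mean of its probe sets); blue points are lower and red points higher at an adjusted p under 0.05 over all probe sets. The points of POLE3 and RRM1 all lie below 0 and passed, while those of RFC5 lie on both sides of 0.

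Taken one by one, 19 of the 113 probe sets were lower (16.8%, beside 4.85% of all probe sets) and 3 were higher (2.65%, beside 5.82% of all probe sets), by limma at an adjusted p under 0.05. The lower ones belonged to 10 genes and the higher ones to 2, PRIM1 and RFC5, with no gene in both. Of the 47 genes 12 were measured by 1 probe set and 35 by several, up to 6 for LIG1. SLBP and POLE2 passed as genes while none of their probe sets passed alone. A probe set that names TIPIN together with ribosomal protein genes was left out.

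Flap processing and ligation genes join the fragments of the lagging strand, and 1 of 4 fell. FEN1, the flap endonuclease, measured 0, -0.01 and 0.04 in the silenced-labelled arrays, against 0.16, 0.31 and 0.28 in control arrays. All silenced-labelled arrays were below all control arrays, and FEN1 was 1.18-fold lower (limma adjusted p = 0.0281, log2 change -0.24, SE 0.059). Of its 3 probe sets 1 passed, at -0.25 (limma adjusted p = 0.0395), and it is of the kind whose probes match several transcripts. The others, at -0.21 and -0.25, did not pass (limma adjusted p = 0.124 and 0.0582). With only the probe sets specific to a gene, FEN1 did not pass. LIG1, the ligase that seals the nicks, had a change of -0.14 (limma adjusted p = 0.182), and EXO1, an exonuclease of mismatch repair and end resection, one of -0.17 (limma adjusted p = 0.0626), both without overlap. All 6 probe sets of LIG1 had negative changes, between -0.19 and -0.02. DNA2, a nuclease and helicase that trims long flaps, had a change of 0.08 with overlapping groups.

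The 5 deoxynucleotide supply genes of the set had negative changes, beside 52.2% of all genes, and 2 of the 5 fell. RRM1, the large subunit of ribonucleotide reductase, which makes deoxynucleotides from ribonucleotides, measured -0.25, -0.20 and -0.14 in the silenced-labelled arrays, against 0.14, 0.11 and 0.20 in control arrays. RRM1 was 1.27-fold lower (limma adjusted p = 0.00396), a log2 change of -0.35 with an SE of 0.057. Each of its 4 probe sets passed, between -0.40 and -0.29. RRM2, the small subunit that sets the enzyme's S phase activity, had a change of -0.13 (95% interval -0.26 to 0.01, limma adjusted p = 0.253), with silenced replicate 3 inside the range of the control arrays.

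DUT, which encodes the dUTPase that keeps uracil out of DNA, measured -0.06, -0.10 and 0.01 in the silenced-labelled arrays, against 0.19, 0.32 and 0.35 in control arrays. DUT was 1.26-fold lower without overlap (limma adjusted p = 0.00792; log2 change -0.34, SE 0.063). Its 4 probe sets had changes of -0.56, -0.43, -0.27 and -0.08, and those at -0.56 and -0.43 passed. TYMS, the thymidylate synthase gene, had a change of -0.18 (limma adjusted p = 0.058) without overlap, and TK1, the thymidine kinase of S phase cells, one of -0.15 (limma adjusted p = 0.309). TK1 differed between control arrays more than between groups, with -0.04 in control replicate 1, 0.22 in replicate 2 and 0.23 in replicate 3.

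None of the 3 fork protection genes passed by limma (0 at an adjusted p under 0.05, 0 at an unadjusted p under 0.05). Over all genes 4467 of 18132 passed at an unadjusted p under 0.05 (limma). CLSPN, which encodes claspin, the mediator of checkpoint signalling at stalled forks, measured 0.11, 0.05 and -0.11 in the silenced-labelled arrays, against 0.27, 0 and 0.21 in control arrays. The groups overlapped through control replicate 2, with a change of -0.14 (95% interval -0.34 to 0.05, limma adjusted p = 0.381). TIMELESS and TIPIN, whose products form a complex that travels with the fork, had changes of 0.0003 (95% interval -0.12 to 0.12) and 0.08 (95% interval -0.07 to 0.22).

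Chromatin and histone supply genes held 2 falls in 4. UHRF1, which recruits the maintenance methyltransferase to newly copied DNA, measured 0.05, 0.03 and 0.06 in the silenced-labelled arrays, against 0.22, 0.26 and 0.24 in control arrays. UHRF1 was 1.14-fold lower (limma adjusted p = 0.0345), a log2 change of -0.20 with an SE of 0.051. Its 3 probe sets gave changes of -0.34, -0.28 and 0.03, and only that at -0.28 passed. The mean over probe sets had a narrow spread in both groups, but each probe set varied more. Their SDs ran from 0.08 to 0.16 in silenced-labelled arrays and from 0.05 to 0.18 in control arrays. SLBP, which binds the stem-loop of histone transcripts, measured 0.03, -0.06 and 0.01 in the silenced-labelled arrays, against 0.16, 0.23 and 0.25 in control arrays. SLBP was 1.16-fold lower without overlap (limma adjusted p = 0.0338; log2 change -0.22, SE 0.057). CHAF1A and CHAF1B, subunits of the CAF-1 chaperone that deposits histones behind the fork, had changes of -0.04 (95% interval -0.17 to 0.08) and 0.02 (95% interval -0.16 to 0.19).

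The 3 E2F genes of the set each lay lower without overlap, beside 14.4% of all genes, and 2 of the 3 passed. E2F8, an atypical E2F that represses targets of the family, measured 0.02, -0.04 and 0.06 in the silenced-labelled arrays, against 0.29, 0.31 and 0.45 in control arrays. E2F8 was 1.26-fold lower (limma adjusted p = 0.00793; log2 change -0.33, SE 0.063), and 2 of its 3 probe sets passed. E2F1, an activator that drives entry into S phase, measured 0.02, 0 and -0.01 in the silenced-labelled arrays, against 0.32, 0.17 and 0.49 in control arrays. E2F1 varied more among control arrays (SD 0.16) than among silenced-labelled arrays (SD 0.02) and was 1.25-fold lower (limma adjusted p = 0.0287; log2 change -0.32, SE 0.08), from 1 probe set. E2F2, another activator, measured -0.02, 0 and -0.18 in the silenced-labelled arrays, against 0.26, 0.04 and 0.17 in control arrays, a change of -0.23 that did not pass (95% interval -0.40 to -0.05, limma adjusted p = 0.0959).

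Since several of these genes are textbook targets of E2F, their promoters were searched for the E2F letters TTTNGCGC on both strands, in windows from 250 bases before to 50 bases after each annotated start (RefSeq, GRCh38.p14). The table held 59 windows for 42 of the 47 genes, and E2F8 was among the 5 genes not analysed here. The letters stood in 28.8% of the windows of the set, beside 1.79% of all 35116 windows. By gene, 5 of the 10 lower genes with a window held them (CDC6, DUT, E2F1, POLE2 and UHRF1), and so did 12 of the 31 genes that did not pass. POLE3 and RRM1, the lower genes with the smallest adjusted p, and PRIM1 had no match in these windows. A match describes letters only.

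The stretches below, from before the start, show the match of the 4 lower genes that have it there, and of the 3 genes with the most positive changes among those that did not pass and have it there, so that the same letters can be seen on both sides. They are written 5′ to 3′ on the gene's strand, with the match in capitals. They lie at chr15:48332140-48332196 (plus strand) for DUT, chr20:33686386-33686435 (minus) for E2F1, chr19:4909954-4910021 (plus) for UHRF1, chr14:49688258-49688325 (minus) for POLE2, chrX:24693751-24693818 (plus) for POLA1, chr6:24775303-24775370 (plus) for GMNN and chr15:66356714-66356781 (minus) for TIPIN. In POLA1 the letters are on the other strand, and in TIPIN matches on both strands overlap by 4 bases.
DUT: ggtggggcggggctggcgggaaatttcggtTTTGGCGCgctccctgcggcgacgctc
E2F1: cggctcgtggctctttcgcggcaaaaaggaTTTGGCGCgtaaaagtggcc
UHRF1: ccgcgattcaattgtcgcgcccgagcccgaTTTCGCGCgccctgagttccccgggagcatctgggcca
POLE2: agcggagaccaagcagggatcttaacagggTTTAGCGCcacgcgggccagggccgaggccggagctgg
POLA1: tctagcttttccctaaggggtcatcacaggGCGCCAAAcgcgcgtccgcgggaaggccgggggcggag
GMNN: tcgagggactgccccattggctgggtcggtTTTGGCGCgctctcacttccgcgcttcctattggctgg
TIPIN: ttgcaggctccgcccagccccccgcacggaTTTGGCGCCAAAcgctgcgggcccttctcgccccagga

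DUT and GMNN carry the same capital letters, and their changes were -0.34 and 0.14. The letters lie 20 bases before the start in E2F1 and 27 in DUT, and between 66 and 160 bases before it in the other five. Of the other letters searched on both strands, CCAAT stood in 49.2% of the windows of the set, beside 34.6% of all windows. TTTGAA, the core of the cell cycle homology region, stood in 5.08%, beside 15.2% of all windows. By gene, TTTGAA stood in 3 of the 10 lower genes (POLE3, RRM1 and DUT) and in 0 of the 31 that did not pass. CCAAT stood in 4 of the 10 and 20 of the 31. These counts are small, and the differences were not tested.

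Other genes of replication, listed by function with earlier results of these data known, were changed in both directions. Of 73 measured genes 11 fell (15.1%, beside 6.19% of all genes), 7 rose (9.59%, beside 7.14%) and 55 did not pass (limma, adjusted p under 0.05). The count of lower genes was 6 without silenced replicate 1, 4 without silenced replicate 2, 3 without silenced replicate 3, 6 without control replicate 2 and 3 without control replicate 3. The median change was -0.02, beside -0.13 for the 47 genes; the difference between the lists was not tested.

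**Figure D4:**
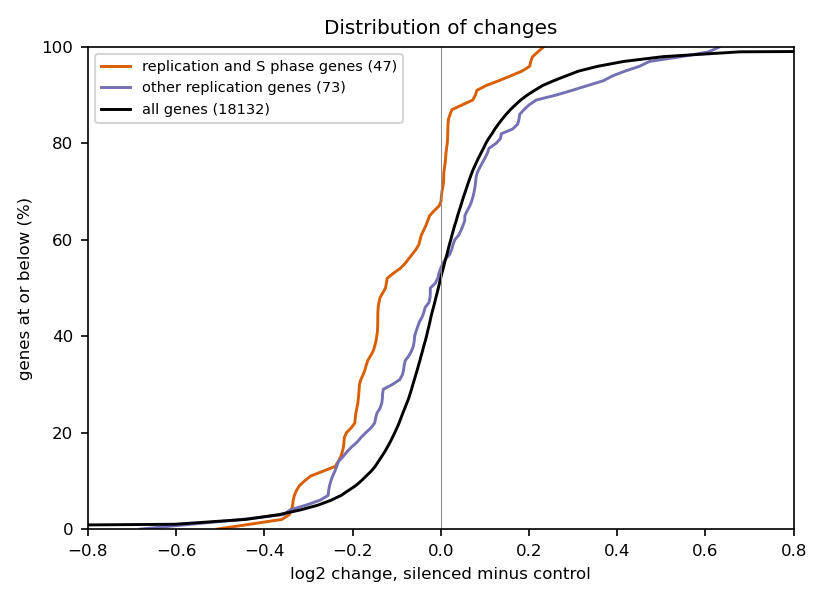
Share of genes (y axis, percent) with a log2 change (silenced-labelled minus control, x axis) at or below each value, for the 47 replication and S phase genes (orange), 73 other replication genes (purple) and all 18132 genes (black); the x axis is limited to -0.8 to 0.8. The orange curve crosses 50% at -0.13, and the black curve at -0.01.

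POLD4, the smallest subunit of polymerase delta, had the largest change of these 73 genes. It measured -0.32, -0.42 and -0.19 in the silenced-labelled arrays, against 0.28, 0.42 and 0.41 in control arrays, 1.6-fold lower (log2 change -0.68, limma adjusted p = 0.000384), on each of 3 probe sets. Within polymerase delta the changes were thus -0.68 for POLD4, -0.30 for POLD1, -0.05 for POLD3 and -0.02 for POLD2. GINS1, a subunit of the active helicase, measured 0.01, -0.04 and 0.02 in the silenced-labelled arrays, against 0.41, 0.57 and 0.58 in control arrays, and was 1.44-fold lower (limma adjusted p = 0.000726).

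MCM6, a subunit of the loaded helicase, measured 0.69, 0.48 and 0.61 in the silenced-labelled arrays, against 0.02, -0.02 and -0.001 in control arrays, and was 1.51-fold higher (limma adjusted p = 0.000397). Of the 10 genes MCM2 to MCM7 and GINS1 to GINS4, 1 rose, 2 fell and 7 did not pass. Over all genes 7.14% rose and 6.19% fell. Among partners and relatives of the E2F factors, E2F5, a repressor-type E2F, measured 0.40, 0.40 and 0.37 in the silenced-labelled arrays, against -0.42, -0.11 and -0.19 in control arrays (1.55-fold higher, limma adjusted p = 0.001, 1 probe set). TFDP2, a dimer partner of E2F factors, rose by 0.48 (limma adjusted p = 0.0141).

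CTPS1, the CTP synthase gene, rose by 0.37 (limma adjusted p = 0.00199) with all 4 probe sets past the threshold, in contrast with the falls of RRM1 and DUT in nucleotide supply. The histone chaperone gene ASF1A rose by 0.40 (limma adjusted p = 0.00214), with 2 of its 3 probe sets past the threshold. HELLS, a chromatin remodeller, rose by 0.45 (limma adjusted p = 0.0297), with 1 of its 3 probe sets past it. The call of HELLS was lost without silenced replicate 1 or 2 or control replicate 2 or 3, with changes between 0.34 and 0.55 over the fits that left out an array. The other genes that passed were E2F3, PCLAF, GINS2, RNASEH2B, DSCC1, MCMBP, RNASEH2A, ASF1B and MTBP, which fell by between 0.21 and 0.36 on the log2 scale, and NASP, which rose by 0.27.

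**Figure D5:**
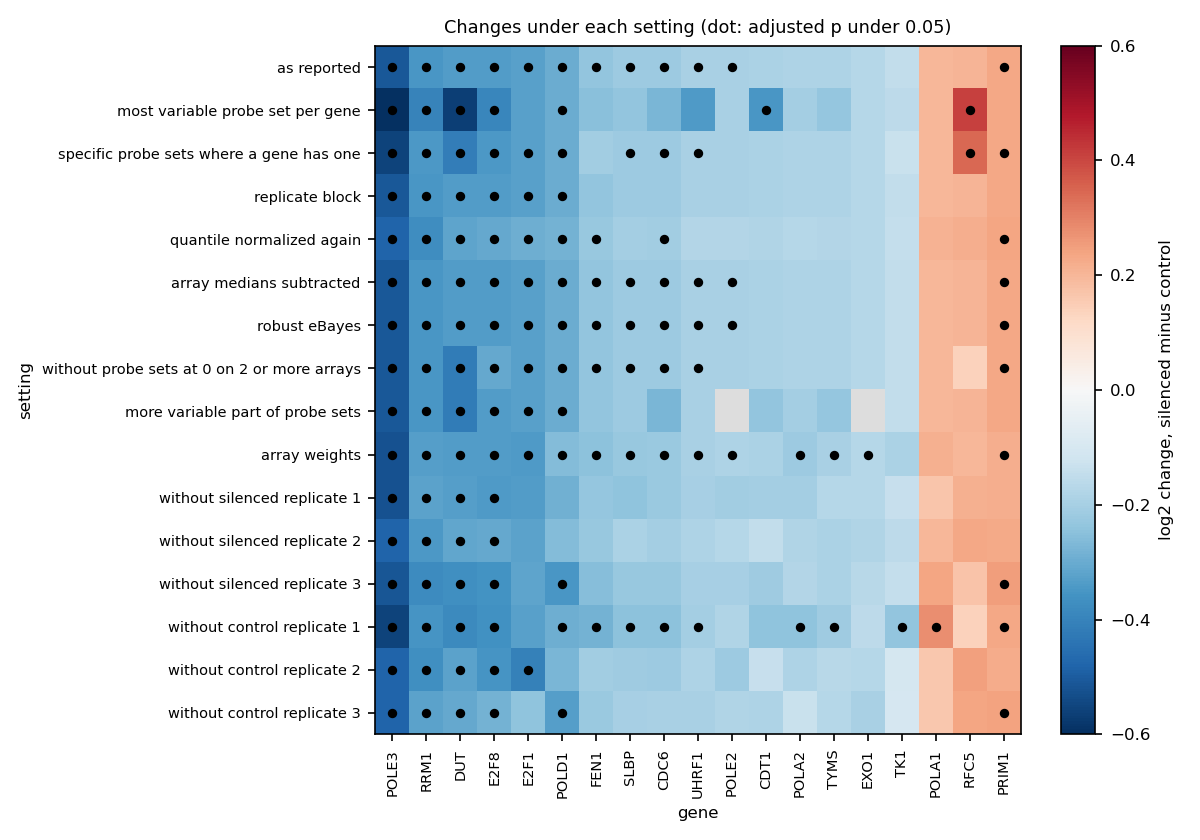
Log2 change (colour, silenced-labelled minus control) of the genes of the set that passed in at least 1 setting (x axis), under each setting (y axis); a dot marks an adjusted p under 0.05 and grey a gene with no probe set left. POLE3, RRM1, DUT and E2F8 have a dot in every row, and no gene changes colour from blue to red.

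Under the alternative settings shown in the map of changes by setting, 4 of the 12 called genes kept their calls throughout (POLE3, RRM1, DUT and E2F8), the other 8 lost theirs in at least 1 setting, and 7 genes that had not passed did so in at least 1 (CDT1, EXO1, POLA1, POLA2, RFC5, TK1 and TYMS). CDT1 passed only where a gene was read from the probe set whose values spread most over all 6 arrays. That spread includes the difference between groups, so such a choice favours changed probe sets. For CDT1 it took the one at -0.35, beside -0.13 and -0.09 for the others. RFC5 passed under that choice and also with only the probe sets specific to a gene. None of the called changes turned its direction (0).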

How the data were processed

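Total RNA of 6 samples was hybridised to 1-colour Affymetrix arrays. The authors deposited log2 values made with RMA, which corrects background, normalises arrays by quantiles and summarises probe sets, per the submitters' processing notes; its version is not given in the sources used here. The values lie near 0, which shows that probe sets were centred later, and a base of 2 is assumed because RMA writes log2. Levels and depth are unknown, and 104 of the 113 member probe sets hold an exact 0 on at least 1 array. Of these, 15 hold it on 2 or more arrays, and such ties can narrow the spread. A 0 on a single array changes neither a spread nor a difference.

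Of 49395 probe sets 102 controls were left out. The platform annotation gave 1 symbol to 44988, several to 1832 (not used) and none to 2473. Genes are averages over all probe sets that carry their symbol alone, as centred values allow no choice by brightness. Differences (silenced minus control) were fitted in R 4.3.3 by limma 3.58.1 (lmFit, eBayes), with Benjamini-Hochberg adjustment over all genes or all probe sets, with no block, and the script was tested on simulated data. Intervals are limma's 95% intervals, not adjusted for many genes. Same-numbered arrays of the groups did not deviate together, while each array did so with 1 differently numbered array (correlations of 0.37 to 0.38 across genes). Deviations were taken from the mean of each group and sum to 0 within it, so some positive partner is built in. The size of these correlations was not tested. Nothing in the labels ties the arrays matched in this way, so no pairing was used.

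The 47 genes, their roles and the list of 75 other replication genes (73 measured, 2 not analysed here) were chosen with earlier results of these data known. Array values are given for each member past the threshold, for the largest change in each role, and, chosen after values were seen, for CDT1, GMNN, POLE, PCNA and E2F2; of the other replication genes the 8 largest called changes are described, with ORC3, ORC4, ORC5 and POLE4 added after values were seen, and the rest only named. A planned search of protein sequences was not made, as no protein table was used here.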

Additional observations from a re-analysis of the deposited data

How the results depend on the processing

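The results were recomputed under up to 9 other settings of the processing (those on the choice of probe set only for genes), under other thresholds for the count of lower genes, and with each array left out in turn. The count of lower genes in the set, 11 as reported, was 6 with each gene read from its most variable probe set, 6 with a replicate block, 6 in the more variable part of probe sets, 6 with a minimum of 1.2-fold, 4 at an adjusted p under 0.01 and 4 to 12 with 1 array left out. It was 8 after renormalising by quantiles, 9 with specific probe sets and 10 without probe sets at 0 on 2 or more arrays. With array weights it was 14, and at an adjusted p under 0.1 it was also 14. The count of higher genes, 1 as reported, was 2 with specific probe sets, 0 with a replicate block, 0 in the more variable part of probe sets and 0 to 2 with 1 array left out; in limma, 3 genes with the block, 1 in the more variable part and at least 2 with an array left out were higher at an unadjusted p under 0.05. The median change was -0.19 in the more variable part, a subset chosen for its spread, and -0.14 to -0.10 with 1 array left out. Lower probe sets, 19 as reported, numbered 12 in the more variable part and 9 to 17 with 1 array left out. They numbered 13 with a replicate block, 17 after renormalising by quantiles and 25 with array weights. Higher probe sets, 3 as reported, numbered 0 to 2 with 1 array left out, with at least 4 at an unadjusted p under 0.05 (limma). Lower genes among the other replication genes, 11 as reported, numbered 7 with a replicate block, 5 in the more variable part and 3 to 11 with 1 array left out. They numbered 8 with the most variable probe set, 9 after renormalising by quantiles, 10 with specific probe sets and 12 with array weights. Fits that leave out an array have fewer samples, and for the other settings the cause was not tested. Same-numbered arrays had deviations that correlated at -0.10, -0.07 and -0.04 across genes, so the numbers as labelled give no pairing; 0 of 6 arrays correlated best with its own number. Each correlated best with another number. Silenced replicate 1 went with control replicate 3 (0.38), silenced replicate 2 with control replicate 1 (0.37) and silenced replicate 3 with control replicate 2 (0.38). Because deviations from the mean of a group sum to 0 within it, a positive best partner is built in, and the size of these correlations was not tested. These matches come from the data and not from the design, and no fit with them as pairs was made. Subtracting array medians left the 2418 called genes and the median change of all genes (-0.01) exactly as they were. Renormalising by quantiles, which makes the distributions of the arrays equal, also left that median at -0.01. Neither setting can therefore check the scaling of the arrays. The change of KCNN4 stayed between -0.04 and 0.05 with 1 array left out. Signal over background is unknown here, so a small change cannot be told apart from a compressed change of a dim probe set.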
